A study of Mus musculus with 6 samples.

Results

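The 94 genes described here were the nuclear-encoded genes of oxidative phosphorylation, chosen by symbol among the 47728 gene rows that each of 4 tables of mouse oocytes and 2-cell (2C) embryos holds. They were all rows outside the mitochondrial chromosome whose symbol starts with Nduf followed by a, b, c, s or v, with Uqcr, with Cox and a number between 4 and 8 or with Atp5, or is Sdha, Sdhb, Sdhc or Sdhd. By symbol, 38 belonged to complex I, 7 to its assembly factors (Ndufaf), 4 to complex II, 8 to complex III, 18 to complex IV and 19 to complex V. Transcripts were measured by RNA-seq in Kdm1aZp3 oocytes (3 libraries), Kdm1aZp3 M-Z+ 2C embryos (3 libraries, embryonic day 1.5), control M+Z+ 2C embryos and control oocytes. The mothers of the mutant groups carried floxed Kdm1a alleles (LSD1 FL/FL) and the ZP3::Cre transgene, which acts in growing oocytes, so the histone demethylase KDM1A was removed from the oocyte. The mutant embryos came from such mothers and wild type CB6 males, and therefore lacked maternal KDM1A but carried a paternal wild type allele. The controls, which the study describes as Kdm1a fl/fl, were libraries of an earlier study whose number is not given in the labels, so wherever mutants are set against controls the genotype and the study of origin cannot be told apart. Mutant oocytes and embryos were collected by litter and not as single cells or embryos. The labels name a TruSeq kit for mutant embryos and another Illumina kit for mutant oocytes.

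Oxidative phosphorylation takes place in the inner mitochondrial membrane. Complexes I and II feed electrons from NADH and succinate to ubiquinone, complex III passes them to cytochrome c, complex IV passes them to oxygen, and complex V uses the resulting proton gradient to make ATP. Most subunits are encoded in the nucleus, while a core set of complexes I, III, IV and V is encoded by mitochondrial DNA, and complex II is wholly nuclear. Oocytes hold many mitochondria and large stores of maternal transcripts, which are cleared as the embryonic genome is activated at the 2C stage.

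Every level below is a group mean of the authors' normalized read count, a score with no per-library value, so no spread between replicates can be given, and no difference has a test. Scores are not divided by gene length and are scaled separately in each table, so levels of single genes were compared only for 1 gene within 1 table. Sums over a list of genes, also within 1 table, are given as descriptions and are weighted toward long and abundant transcripts. A log2 ratio was taken after adding 1 to both means. A gene was counted as higher or lower when its means differed at least 4-fold, among rows with an average of the group means of at least 10, and counts of members are read against the share of all rows that did so. The median log2 ratio of all rows was 0.01 for Kdm1aZp3 oocytes over control oocytes, -0.31 for M-Z+ over control M+Z+ 2C embryos, 0.17 for control M+Z+ 2C embryos over control oocytes and -0.14 for M-Z+ 2C embryos over control oocytes. Kdm1a itself had a mean of 6.37 in Kdm1aZp3 oocytes, against 921 in control oocytes, and of 14.5 in M-Z+ 2C embryos, against 1254 in control 2C embryos. All 12 oocyte marker genes listed were present in both oocyte groups. Exons of 31 of the 94 genes overlap another annotated gene, mostly on the other strand, and the sources used here do not state whether strand was used in counting, so their values may hold reads of that gene. Among 12 cumulus and granulosa cell markers, Foxl2 and Amh were at 0 in every group. In the 2C comparison 3 of the 12 passed the filter, 2 higher and 1 lower in M-Z+ embryos. Cyp19a1 had 1488 in M-Z+ embryos, against 5.55 in control embryos, and Ptgs2 had 48.6, against 0.377. Amhr2 had 2.23 in M-Z+ embryos, against 551 in control embryos. The part of these markers in the results was not tested.

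In oocytes, most oxidative phosphorylation genes had a somewhat higher mean in Kdm1aZp3 oocytes than in control oocytes, and few differed 4-fold. Of the 94 genes 82 passed the filter, of which 5 were at least 4-fold higher and 0 at least 4-fold lower. All rows had shares of 7.39% higher and 4.88% lower in this comparison, so the share of members higher at 4-fold (6.10%) was near the background. At 2-fold, 30 of the 82 were higher and 4 lower, beside 17.7% and 14.0% of all rows. The median log2 ratio of the 82 was 0.75 (quartiles 0.35 and 1.37), beside 0.01 over all rows, and 67 of the 82 lay above 0. Their share of all summed means was 0.386% in Kdm1aZp3 oocytes and 0.252% in control oocytes. A median above that of all rows was not limited to oxidative phosphorylation genes. It was 0.88 for 68 cytosolic and 0.44 for 65 mitochondrial ribosomal protein genes, and 0.55 for 12 oocyte markers. Other lists had medians of 0.17 (42 other assembly and electron transport genes), -0.58 (12 regulators of mitochondrial genes) and -2.49 (13 rows of the mitochondrial genome).

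Complex I had the highest median among the complexes in oocytes, a log2 ratio of 1.14 over 38 genes, and held 4 of the 5 genes counted as higher. These were 10.5% of its genes, beside 7.39% of all rows, and complex I made up 38 of the 82 members that passed. Ndufa9, an accessory subunit near the ubiquinone-binding site, had a mean of 1019 in Kdm1aZp3 oocytes, against 134 in control oocytes (log2 ratio 2.91). Ndufs8, an iron-sulphur subunit of the arm that reduces ubiquinone, had 77.7 in Kdm1aZp3 oocytes, against 13.5 in control oocytes (log2 ratio 2.44). Ndufc1, a small membrane-arm subunit, had 48.2 in Kdm1aZp3 oocytes, against 9.85 in control oocytes (log2 ratio 2.18), and was the member closest to the 4-fold bound from inside; Atp5j at 1.88 was the closest outside. Ndufa4l2, a relative of Ndufa4 that hypoxia induces, had 87.4 in Kdm1aZp3 oocytes, against 4.59 in control oocytes (log2 ratio 3.98), and its exons overlap those of Shmt2 on the other strand. The exons of Ndufa9 overlap 1700018A23Rik on the other strand. With a pseudocount of 10 Ndufs8 (log2 ratio 1.90) and Ndufc1 (1.55) fell under 4-fold, so none of the 5 genes counted in oocytes passed both this setting and the omission of genes with overlapping exons. None of the genes of complex I was at least 4-fold lower, beside 4.88% of all rows.

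Outside complex I the medians in oocytes were smaller. Medians were 0.47 for the 6 assembly factors that passed, -0.07 for the 4 genes of complex II, 0.37 for 6 genes of complex III, 0.76 for 14 of complex IV and 0.65 for 14 of complex V. Ndufaf4, an assembly factor, had 4381 in Kdm1aZp3 oocytes, against 3324 in control oocytes, and Ndufaf2 had 736 in Kdm1aZp3 oocytes, against 935 in control oocytes. In complex II, Sdha (1322 in Kdm1aZp3 oocytes, 1146 in control oocytes), Sdhc (565 in Kdm1aZp3 oocytes, 609 in control oocytes) and Sdhd (493 in Kdm1aZp3 oocytes, 506 in control oocytes) differed less than 2-fold, and Sdhb had 20.3 in Kdm1aZp3 oocytes, against 61.9 in control oocytes. In complex III, Uqcrb, a small subunit, had 358 in Kdm1aZp3 oocytes, against 125 in control oocytes (log2 ratio 1.52), and Uqcrc2, a core protein, had 1551 in Kdm1aZp3 oocytes, against 1411 in control oocytes. These genes all stayed under 4-fold. In complex IV, Cox6c, a nuclear-encoded small subunit, had 382 in Kdm1aZp3 oocytes, against 67.8 in control oocytes (log2 ratio 2.48), and was the 1 gene counted outside complex I; its exons overlap Vps13b on the other strand. Cox5a, another subunit of complex IV, had 629.9 in Kdm1aZp3 oocytes, against 461 in control oocytes. In complex V, Atp5h, subunit d of the peripheral stalk, had 1044 in Kdm1aZp3 oocytes, against 412 in control oocytes, and Atp5c1, the gamma subunit of the central stalk, had 381 in Kdm1aZp3 oocytes, against 480.1 in control oocytes. The catalytic subunits Atp5b (1456 in Kdm1aZp3 oocytes, 917 in control oocytes) and Atp5a1 (2381 in Kdm1aZp3 oocytes, 2549 in control oocytes) differed less than 2-fold.

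In this comparison the list of cumulus and granulosa cell markers summed to 4275 in Kdm1aZp3 oocytes, against 980 in control oocytes, with 4 of 12 above 0 in Kdm1aZp3 oocytes and 7 of 12 in control oocytes, and its part in the result was not tested. Nearly all of it was Cyp19a1 (4237 in Kdm1aZp3 oocytes, 957 in control oocytes), the aromatase gene. Foxl2, Amh, Amhr2 and Inha were at 0 in both oocyte groups.

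**Figure D1:**
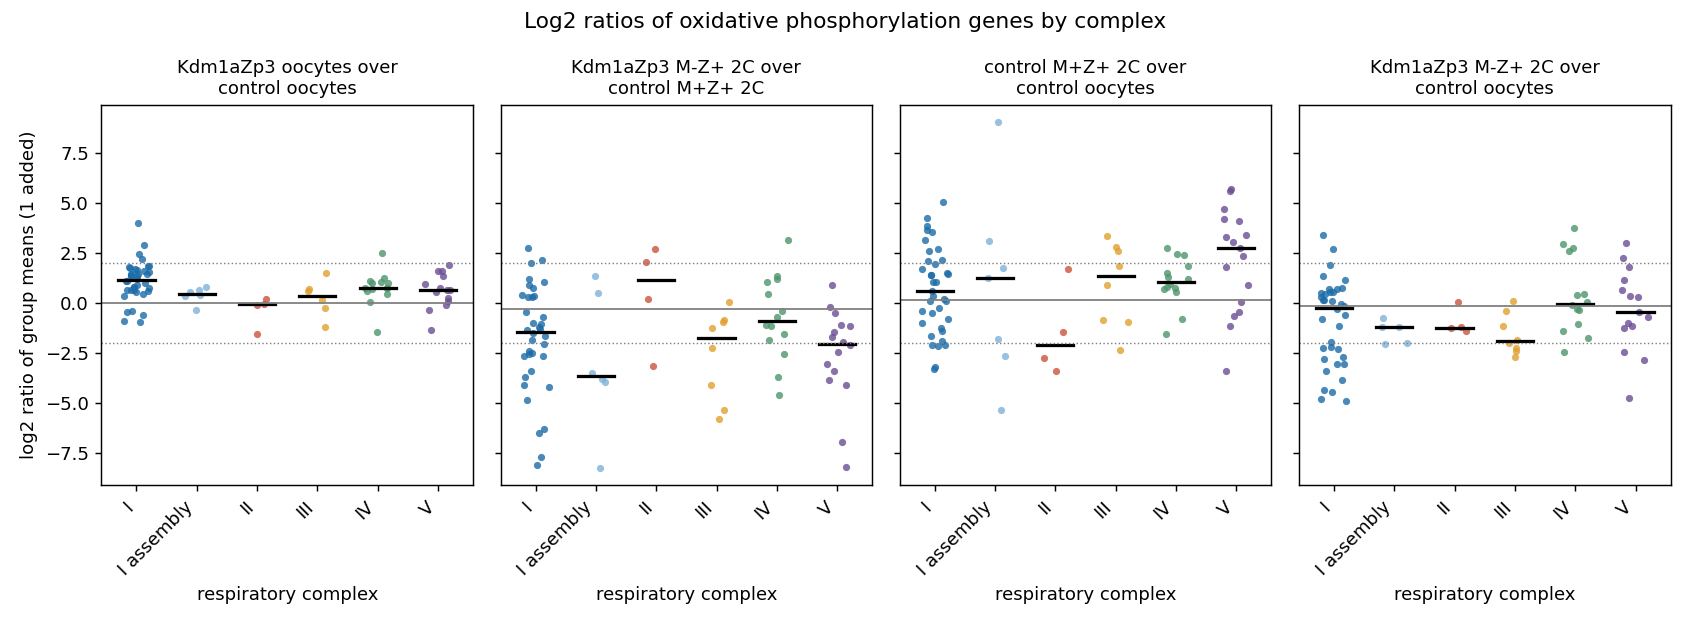
Log2 ratio of group means (y axis, 1 added to each mean) of each oxidative phosphorylation gene that passed the filter (points), by respiratory complex (x axis), in the 4 comparisons. Black bars are medians, the grey line is the median of all rows and the dotted lines mark 4-fold. Complex II has a median of 1.13 in M-Z+ over control 2C embryos, where complex V has -2.02 and the assembly factors -3.64.

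In 2C embryos the genes split: 35 of the 84 that passed the filter were at least 4-fold lower in M-Z+ embryos and 6 were at least 4-fold higher. Over all rows 31.2% were lower and 20.1% higher, so the members' share lower (41.7%) was above the background and their share higher (7.14%) below it. The median log2 ratio of the members was -1.46 (quartiles -3.41 and 0.22), beside -0.31 over all rows, and 60 of the 84 lay below the median of all rows. The summed means were 0.269% of the total in M-Z+ embryos and 0.315% in control embryos. Without Atp5b these shares were 0.188% and 0.231%. Rows of the mitochondrial genome made up 4.92% of that total in M-Z+ embryos and 34.6% in control embryos, so the shares rest on unlike totals. Both groups were embryos at the 2C stage, and the scores were median normalized, so they give relative levels and not the amount of RNA per embryo. Below the filter were Ndufa4l2, Ndufs6, Ndufaf3, Cox7a1, Cox7b2, Cox8b, Cox8c, Atp5g2, Atp5l-ps1 (a pseudogene) and Atp5l2. Ndufa13 (log2 ratio -2.04) was the member nearest the bound on the lower side and Atp5f1 (-1.94) the nearest outside it.

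In complex I, 15 of 36 genes were lower (41.7%) and 3 were higher (8.33%) in M-Z+ embryos, beside 31.2% and 20.1% of all rows, and the median log2 ratio was -1.43. Among the subunits that carry iron-sulphur clusters or bind the substrates, Ndufs1 had a mean of 18.7 in M-Z+ embryos, against 358 in control embryos (log2 ratio -4.19). Ndufs8 had 0.580 in M-Z+ embryos, against 325 in control embryos (log2 ratio -7.69). Ndufs7 had 40.5 in M-Z+ embryos, against 262 in control embryos, and Ndufv2 had 203 in M-Z+ embryos, against 1143 in control embryos. Ndufs1, Ndufs8, Ndufs7 and Ndufv2 thus lay between 2.48 and 7.69 below control embryos on the log2 scale. Not all subunits of this kind did: Ndufv1, which also binds a substrate, differed less than 2-fold, as did Ndufs3, also part of the hydrophilic arm. Ndufs3 had 211 in M-Z+ embryos, against 114 in control embryos, and Ndufv1, which binds NADH and the flavin, had 88.0 in M-Z+ embryos, against 121 in control embryos.

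Accessory subunits of complex I went both ways. Ndufc1 had 0.893 in M-Z+ embryos, against 518 in control embryos (log2 ratio -8.10), whereas its partner in the membrane arm, Ndufc2, had 270.1 in M-Z+ embryos, against 39.5 in control embryos (log2 ratio 2.74). Ndufb3 had 143 in M-Z+ embryos, against 31.6 in control embryos (log2 ratio 2.14). Ndufa4 had 1979 in M-Z+ embryos, against 490 in control embryos (log2 ratio 2.01); its product, first assigned to complex I, is now placed in complex IV. Ndufc1 and Ndufc2 thus lay on opposite sides of control embryos within 1 complex. Among assembly factors, which help build complex I and are not part of it, 4 of 6 were lower (66.7%, beside 31.2% of all rows), 0 higher, and the median log2 ratio was -3.64. Ndufaf1, which acts in assembly of the membrane arm, had 0.203 in M-Z+ embryos, against 360 in control embryos. Ndufaf2 had 609 in M-Z+ embryos, against 237 in control embryos, and Ndufaf4 had 2188 in M-Z+ embryos, against 1527 in control embryos.

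Complex II was the only complex whose median was above 0 in this comparison, at 1.13 over its 4 genes. Sdha, the flavoprotein that oxidizes succinate, had a mean of 1806 in M-Z+ embryos, against 275 in control embryos (log2 ratio 2.71). Sdhc, a membrane anchor, had 381 in M-Z+ embryos, against 91.2 in control embryos (log2 ratio 2.05), and Sdhd, the other anchor, had 336 in M-Z+ embryos, against 291 in control embryos. Sdhb, the iron-sulphur subunit that passes electrons from Sdha to the anchors, had 34.8 in M-Z+ embryos, against 319 in control embryos (log2 ratio -3.16). Complex II is built in equal numbers of its 4 subunits, and their means differed in direction between the groups.

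In complex III, 4 of 8 genes were lower (50%, beside 31.2% of all rows) and 0 higher, and the median log2 ratio was -1.74. Uqcrfs1, the Rieske iron-sulphur protein, had a mean of 23.6 in M-Z+ embryos, against 1002 in control embryos (log2 ratio -5.35). Uqcrc1 had 2.69 in M-Z+ embryos, against 203 in control embryos (log2 ratio -5.78), whereas its partner core protein Uqcrc2 had 448 in M-Z+ embryos, against 438 in control embryos. The lower genes were thus the catalytic iron-sulphur subunit, 1 of the core proteins and the small subunits Uqcr10 and Uqcr11.

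Complex V had 8 of 16 genes lower (50%, beside 31.2% of all rows), 0 higher and a median log2 ratio of -2.02. These were placed by symbol, and the reference names Atp5s as Dmac2l and Atp5sl as Dmac2, so their place in complex V is by old symbol only. Atp5s (log2 ratio -2.44) was among the lower genes, and Atp5sl (0.91) was the 1 gene above 0. Atp5j, coupling factor 6 of the peripheral stalk, had a mean of 5.34 in M-Z+ embryos, against 1856 in control embryos (log2 ratio -8.19). Atp5o, the oligomycin sensitivity protein of the same stalk, had 6.35 in M-Z+ embryos, against 893 in control embryos (log2 ratio -6.93). Atp5d and Atp5e, small subunits of the central stalk, had 28.1 and 42.4 in M-Z+ embryos, against 494 and 359 in control embryos. The catalytic subunits lay closer to control embryos: Atp5b had 10694 in M-Z+ embryos, against 14988 in control embryos (log2 ratio -0.49), and Atp5a1 had 1911 in M-Z+ embryos, against 4158 in control embryos (log2 ratio -1.12). Atp5h differed least among the genes of complex V with a mean of at least 200, with 259 in M-Z+ embryos, against 294 in control embryos. The exons of Atp5j overlap those of Gabpa on the other strand, so reads of the pair may not be separable. Gabpa had 47.7 in M-Z+ embryos, against 7623 in control embryos.

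In complex IV, 3 of 14 genes were lower (21.4%) and 1 higher (7.14%), both under the shares of all rows (31.2% and 20.1%), and the median log2 ratio was -0.91. Several complex IV subunits exist as paralogs, of which 1 is widely expressed and another is restricted to a few tissues. Cox4i1, the widely expressed form of subunit 4, had a mean of 38.9 in M-Z+ embryos, against 963 in control embryos (log2 ratio -4.59), whereas Cox4i2, known from lung and from low oxygen, had 612 in M-Z+ embryos, against 68.8 in control embryos (log2 ratio 3.13). Cox6a1 had 732 in M-Z+ embryos, against 1577 in control embryos, whereas Cox6a2, the heart and muscle form, had 48.2 in M-Z+ embryos, against 20.4 in control embryos. Cox6b1 had 230 in M-Z+ embryos, against 831 in control embryos (log2 ratio -1.85), whereas Cox6b2, known as the testis form, had 1825 in M-Z+ embryos, against 879 in control embryos (log2 ratio 1.05). In each of these 3 pairs the widely expressed form was lower and the restricted form higher in M-Z+ embryos, though only the Cox4i pair passed 4-fold in both directions. The exons of Cox4i1 overlap those of Emc8 on the other strand, and those of Cox6a2 overlap Itgad.

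The other paralog sets held no pair of measured forms with opposite 4-fold differences. Cox7a2 had 260.0 in M-Z+ embryos, against 1495 in control embryos (log2 ratio -2.52), the related supercomplex factor Cox7a2l had 320 in M-Z+ embryos, against 717 in control embryos, and the muscle form Cox7a1 was below the filter. Cox7b had 292 in M-Z+ embryos, against 851 in control embryos, and Cox7b2 was below the filter in every comparison. Cox8a had 2300 in M-Z+ embryos, against 1673 in control embryos, Cox8c was below the filter and Cox8b was listed at 0 in every group. Among the 3 genes of the membrane ring subunit c, which encode the same mature protein, Atp5g1 had 67.3 in M-Z+ embryos, against 990.5 in control embryos, Atp5g3 had 54.4 in M-Z+ embryos, against 576 in control embryos, and Atp5g2 was below the filter.

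**Figure D2:**
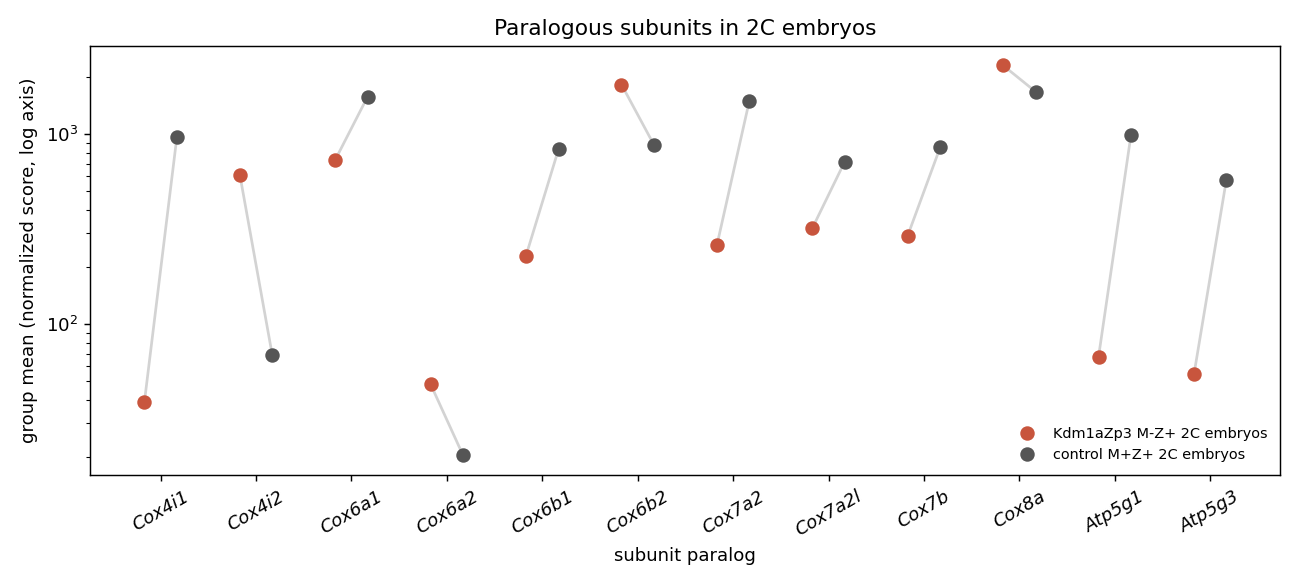
Group means (y axis, normalized score on a log axis) of paralogous subunits of complexes IV and V (x axis) in Kdm1aZp3 M-Z+ 2C embryos (red, left of each pair) and control M+Z+ 2C embryos (grey, right). Cox4i1 and Cox4i2 cross: 38.9 against 963 and 612 against 68.8. Paralogs below the filter are left out.

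In the study's design, control embryos against control oocytes gives the normal course from oocyte to 2C embryo. M-Z+ embryos were set against the same control oocytes, here called the mutant course. That comparison does not start from Kdm1aZp3 oocytes, in which the members had a median log2 ratio of 0.75 over control oocytes. Both comparisons share the control oocytes, each shares an embryo group with the comparison between embryos, and the values are set side by side below. In control embryos over control oocytes, 28 of 87 members were at least 4-fold higher, or 32.2% beside 29.6% of all rows, and 11 were at least 4-fold lower, or 12.6% beside 23.1% of all rows. In M-Z+ embryos over control oocytes, 8 of 82 members were higher, or 9.76% beside 14.4% of all rows, and 21 were lower, or 25.6% beside 17.4% of all rows. The median log2 ratio of the members was 1.06 in control embryos and -0.64 in M-Z+ embryos over control oocytes.

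Complex V had the highest median in control embryos over control oocytes, 2.74 over 17 genes with 10 higher (58.8%, beside 29.6% of all rows) and 1 lower, and in M-Z+ embryos its median was -0.47 over 15 genes with 2 higher (13.3%, beside 14.4%) and 3 lower (20%, beside 17.4%). Atp5b had a mean of 21799 in control embryos, against 2094 in control oocytes (log2 ratio 3.38), and, with the scaling of the M-Z+ embryos, 10916 in M-Z+ embryos, against 1384 in control oocytes (log2 ratio 2.98). Atp5j had 2707 in control embryos, against 51.3 in control oocytes (log2 ratio 5.69), and 5.44 in M-Z+ embryos, against 34.4 in control oocytes (log2 ratio -2.46). Atp5b was thus at least 4-fold higher than in control oocytes in either kind of embryo, while Atp5j was higher in control embryos and lower in M-Z+ embryos. Atp5j2, subunit f of the membrane part, had 827 in control embryos, against 8551 in control oocytes (log2 ratio -3.37), and 214 in M-Z+ embryos, against 5656 in control oocytes (log2 ratio -4.72).

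Complex II ran against the others in control embryos, with a median log2 ratio of -2.10 over control oocytes, 2 of 4 genes lower (50%, beside 23.1% of all rows) and 0 higher. Sdha had 400.2 in control embryos, against 2665 in control oocytes (log2 ratio -2.73), and 1832 in M-Z+ embryos, against 1769 in control oocytes (log2 ratio 0.05). Sdhc had 132 in control embryos, against 1411 in control oocytes (log2 ratio -3.40), and 387 in M-Z+ embryos, against 931 in control oocytes (log2 ratio -1.27). Sdhb had 464 in control embryos, against 143 in control oocytes, and 34.6 in M-Z+ embryos, against 93.9 in control oocytes. Ndufc2 and Ndufb3, which like Sdha and Sdhc were higher in M-Z+ than in control embryos, were also at least 4-fold lower in control embryos than in control oocytes, with log2 ratios of -2.14 and -2.11.

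In complex I, 10 of 37 genes were higher (27.0%, near the 29.6% of all rows) and 5 lower (13.5%, beside 23.1%) in control embryos over control oocytes. In M-Z+ embryos over control oocytes 2 of 36 were higher (5.56%, beside 14.4%) and 13 lower (36.1%, beside 17.4%). Ndufa8, an accessory subunit, had 294 in control embryos, against 2652 in control oocytes (log2 ratio -3.17), and 270 in M-Z+ embryos, against 1755 in control oocytes (log2 ratio -2.70). Ndufc1 had 761 in control embryos, against 22.6 in control oocytes (log2 ratio 5.01), and 0.953 in M-Z+ embryos, against 14.9 in control oocytes, where it was below the filter. Ndufab1, the mitochondrial acyl carrier protein, had 619 in control embryos, against 103 in control oocytes, and 733 in M-Z+ embryos, against 67.9 in control oocytes (log2 ratio 3.41). Ndufaf1 was listed at 0 in control oocytes in all 3 tables that hold them, so no fold is given, and had 520 in control embryos; it is 1 of the 28 genes counted as higher there. Ndufaf2 had 346 in control embryos, against 2155 in control oocytes (log2 ratio -2.64), and 621 in M-Z+ embryos, against 1427 in control oocytes, and Ndufaf4 had 2229 in M-Z+ embryos, against 5055 in control oocytes.

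Complexes III and IV differed in the mutant course. In complex III, 3 of 8 genes were higher (37.5%, beside 29.6% of all rows) and 1 lower in control embryos over control oocytes, and in M-Z+ embryos 0 were higher and 3 lower (37.5%, beside 17.4% of all rows; median log2 ratio -1.92). Uqcrfs1 had 1454 in control embryos, against 243 in control oocytes, and 24.1 in M-Z+ embryos, against 160 in control oocytes (log2 ratio -2.68). Uqcrc2 had 638 in control embryos, against 3285 in control oocytes (log2 ratio -2.36), and 457 in M-Z+ embryos, against 2167 in control oocytes (log2 ratio -2.24). Uqcrc1 had 293 in control embryos, against 27.6 in control oocytes, and Uqcrq had 56.8 in M-Z+ embryos, against 206 in control oocytes. In complex IV, 3 of 14 genes were higher (21.4%, beside 29.6% of all rows) and 0 lower in control embryos over control oocytes (Cox4i1, Cox7a2 and Cox8a), and in M-Z+ embryos 4 of 14 were higher (28.6%, beside 14.4% of all rows) and 1 lower. Those 4 were Cox4i2 (616 in M-Z+ embryos, against 45.8 in control oocytes), Cox6b2 (1854 in M-Z+ embryos, against 304 in control oocytes), Cox6c and Cox8a. Cox4i2 had 99.4 in control embryos, against 68.1 in control oocytes in the other table, a log2 ratio of 0.54. Cox5b, a subunit of complex IV, had 395 in control embryos, against 676 in control oocytes, and 169 in M-Z+ embryos, against 446 in control oocytes.

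**Figure D3:**
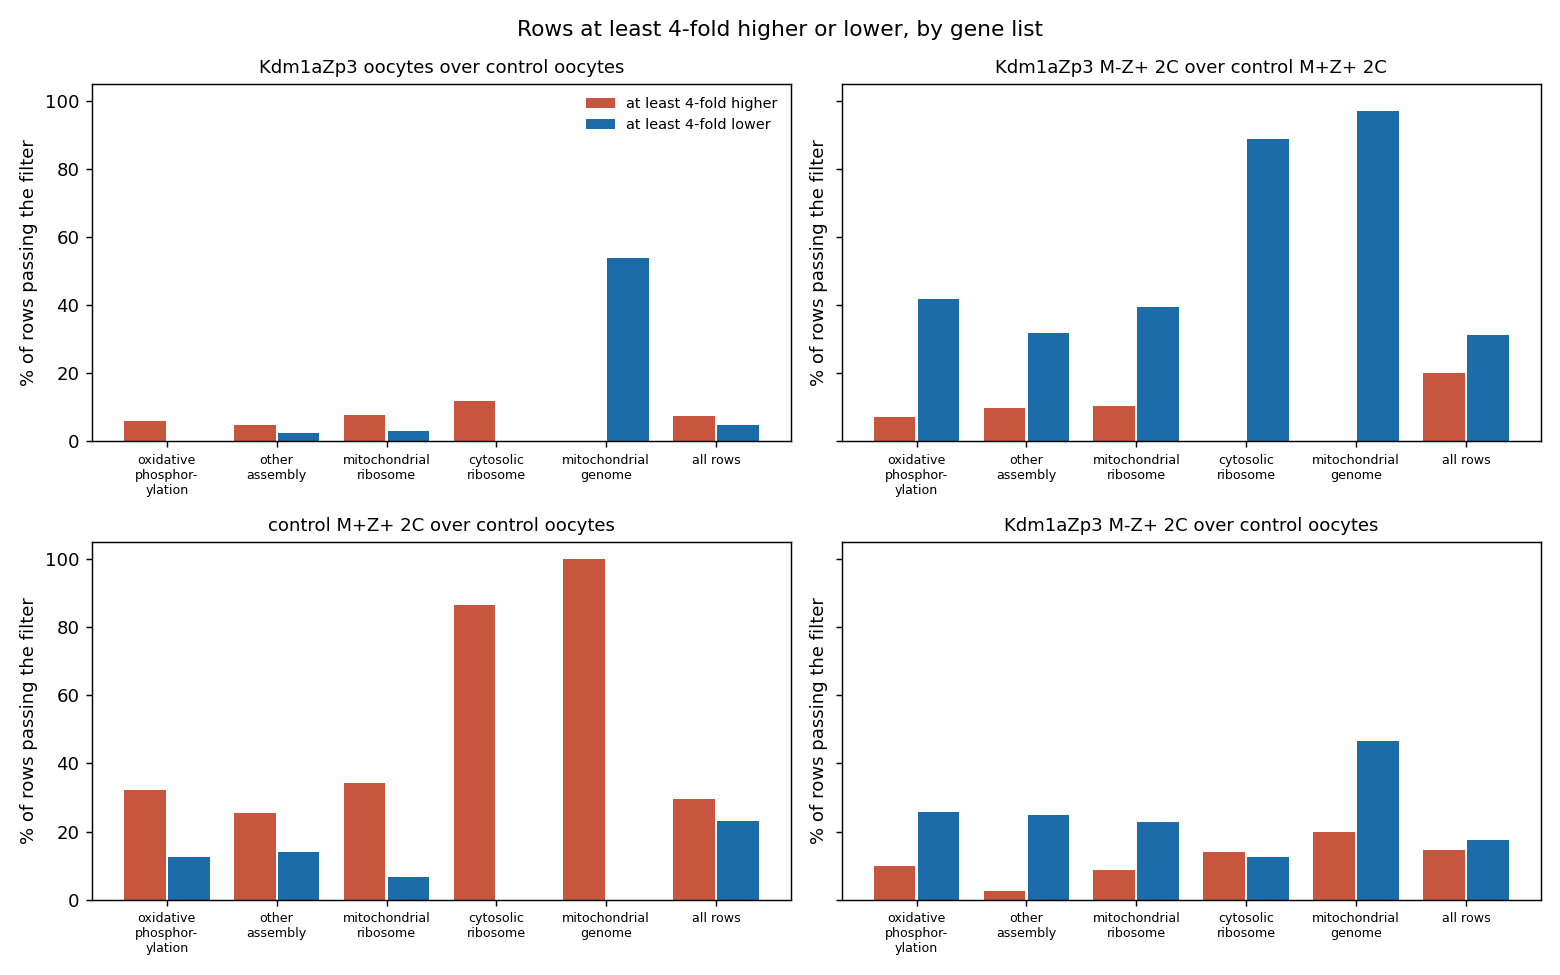
Share of gene rows passing the filter (y axis, %) that were at least 4-fold higher (red) or lower (blue) in group means, for oxidative phosphorylation genes, other assembly and electron transport genes, mitochondrial and cytosolic ribosomal protein genes, rows of the mitochondrial genome and all rows (x axis), in the 4 comparisons. In M-Z+ over control 2C embryos 41.7% of oxidative phosphorylation genes were lower, beside 88.8% of cytosolic ribosomal protein genes, 96.9% of mitochondrial genome rows and 31.2% of all rows.

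Other genes of the pathway, from lists of assembly factors, cytochrome c and ubiquinone synthesis genes, were set beside the members. Of 41 that passed in 2C embryos 13 were lower (31.7%, near the 31.2% of all rows) and 4 higher (9.76%, beside 20.1%) in M-Z+ embryos, and the median log2 ratio was -1.35. Cox17, the copper chaperone of complex IV, had a mean of 0.797 in M-Z+ embryos, against 737 in control embryos (log2 ratio -8.68). The somatic cytochrome c gene Cycs had 75.2 in M-Z+ embryos, against 239 in control embryos, whereas the testis form Cyct had 115 in M-Z+ embryos, against 18.7 in control embryos (log2 ratio 2.56). In oocytes 2 of 42 of these genes were higher (4.76%, beside 7.39% of all rows) and 1 lower (2.38%, beside 4.88%; median log2 ratio 0.17).

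Of the transcription factors and mitochondrial gene regulators listed, 8 of 14 that passed in 2C embryos were lower in M-Z+ embryos (57.1%, beside 31.2% of all rows) and 0 were higher (median log2 ratio -2.60). Gabpa, an ETS factor known to act on respiratory genes, had a log2 ratio of -7.29, Yy1 of -5.29, the coactivator Pprc1 of -4.74 and the mitochondrial RNA polymerase gene Polrmt of -5.46. Nrf1, the nuclear respiratory factor, had 593 in M-Z+ embryos, against 1384 in control embryos (log2 ratio -1.22). The mitochondrial DNA packaging factor Tfam had 56.3 in M-Z+ embryos, against 134 in control embryos. The log2 ratio lay above 0 for 3 of the 14 and below 0 for 11. Those above 0 were Gabpb1 (0.04, with 1783 in M-Z+ embryos and 1737 in control embryos), Tfb1m (1.38) and Polg (1.09). In oocytes 2 of 12 of these genes were lower in Kdm1aZp3 oocytes (Ppargc1b and Polrmt; 16.7%, beside 4.88% of all rows) and 0 were higher. Ppargc1a was listed at 0 in every group.

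Transcripts of the mitochondrial genome, which encodes the remaining subunits, did not follow the nuclear genes in oocytes. The 33 rows were taken by chromosome and not by whether they encode a subunit, and 20 of them were below the filter in oocytes. Of the 13 that passed, 7 were lower (53.8%, beside 4.88% of all rows) and 0 higher in Kdm1aZp3 oocytes. Their median log2 ratio was -2.49, while the nuclear members had a median of 0.75. In 2C embryos 31 of 32 such rows were lower in M-Z+ embryos (96.9%, beside 31.2% of all rows), with a median of -5.93. Rows of the mitochondrial genome made up 4.92% of summed means in M-Z+ embryos and 34.6% in control embryos. Mitochondrial ribosomal protein genes lay close to the members, with 30 of 76 lower (39.5%, beside 31.2% of all rows), 8 higher (10.5%, beside 20.1%) and a median of -1.20 in M-Z+ over control embryos, whereas cytosolic ribosomal protein genes had 79 of 89 lower, 0 higher and a median of -4.17. Oocyte marker genes summed to 125866 in M-Z+ embryos, against 11133 in control embryos, with 9 of 12 at least 4-fold higher (75%, beside 20.1% of all rows). Rows of 2C marker genes summed to 1874 in M-Z+ embryos, against 4114 in control embryos. Of the 10 that passed, 6 were at least 4-fold lower (60%, beside 31.2% of all rows) and 1 higher (10%, beside 20.1%). Their median log2 ratio was -3.14. The higher one was Tcstv1, with 629 in M-Z+ embryos, against 31.5 in control embryos. The part of the stage of the embryos in the members' values was not tested.

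Promoter sequences from RefSeq (GRCm38.p6, 300 bases around each annotated start) were matched to 76 of the 94 genes, giving 82 promoters. Among those not matched were Atp5a1, Atp5l-ps1, Atp5l2, Cox4i1, Cox4i2, Cox6a2, Cox6c, Cox8c, Ndufa2, Ndufa4l2, Ndufaf6, Ndufb9, Ndufs1, Sdhc, Uqcrb, Uqcrc2 and Uqcrq. Sequences are shown for genes far apart in 2C embryos, the lower Atp5j, Ndufc1 and Ndufs8 and the higher Sdha, and for the Cox6b pair, so that the letters known to be read by regulators of respiratory genes can be seen in place. Searched on both strands were the NRF1 letters GCGCA and GCGC with any base between them, the ETS letters CCGGAAG and the YY1 letters AAGATGGCG; each match is in capitals below, and the 3 sets of letters do not hold one another. Atp5j is shown at chr16:84834927-84835226, Ndufc1 at chr3:51408906-51409205, Ndufs8 at chr19:3912725-3913024, Sdha at chr13:74350191-74350490, Cox6b1 at chr7:30626065-30626364 and Cox6b2 at chr7:4753045-4753344, all on the minus strand and printed 5′ to 3′ along the gene.
Atp5j: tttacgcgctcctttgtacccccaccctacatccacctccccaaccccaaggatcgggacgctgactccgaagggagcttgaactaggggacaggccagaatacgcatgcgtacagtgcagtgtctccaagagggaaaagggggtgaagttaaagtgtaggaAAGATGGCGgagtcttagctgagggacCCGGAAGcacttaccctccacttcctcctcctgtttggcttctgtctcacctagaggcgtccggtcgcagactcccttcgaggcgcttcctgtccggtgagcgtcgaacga
Ndufc1: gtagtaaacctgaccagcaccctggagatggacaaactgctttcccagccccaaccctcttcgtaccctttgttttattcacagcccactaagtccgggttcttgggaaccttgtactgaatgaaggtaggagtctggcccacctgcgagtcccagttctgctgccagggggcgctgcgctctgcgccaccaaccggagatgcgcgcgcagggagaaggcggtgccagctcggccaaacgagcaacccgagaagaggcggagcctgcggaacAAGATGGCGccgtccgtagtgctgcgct
Ndufs8: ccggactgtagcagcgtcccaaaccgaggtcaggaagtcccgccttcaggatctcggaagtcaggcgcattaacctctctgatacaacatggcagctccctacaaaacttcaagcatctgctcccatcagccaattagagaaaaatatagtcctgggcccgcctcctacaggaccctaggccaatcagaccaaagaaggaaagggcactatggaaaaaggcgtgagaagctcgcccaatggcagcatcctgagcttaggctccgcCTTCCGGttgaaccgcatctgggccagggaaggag
Sdha: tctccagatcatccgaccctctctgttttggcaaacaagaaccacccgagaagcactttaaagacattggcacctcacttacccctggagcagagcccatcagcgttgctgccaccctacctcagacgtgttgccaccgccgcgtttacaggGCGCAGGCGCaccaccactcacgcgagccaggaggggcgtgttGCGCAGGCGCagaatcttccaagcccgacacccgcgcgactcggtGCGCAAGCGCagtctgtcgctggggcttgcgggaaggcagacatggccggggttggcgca
Cox6b1: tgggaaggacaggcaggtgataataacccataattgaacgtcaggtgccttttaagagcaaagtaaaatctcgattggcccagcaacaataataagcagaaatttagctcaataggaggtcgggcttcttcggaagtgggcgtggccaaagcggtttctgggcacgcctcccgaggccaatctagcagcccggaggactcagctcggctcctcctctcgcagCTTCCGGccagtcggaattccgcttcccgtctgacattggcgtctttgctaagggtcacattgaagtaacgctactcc
Cox6b2: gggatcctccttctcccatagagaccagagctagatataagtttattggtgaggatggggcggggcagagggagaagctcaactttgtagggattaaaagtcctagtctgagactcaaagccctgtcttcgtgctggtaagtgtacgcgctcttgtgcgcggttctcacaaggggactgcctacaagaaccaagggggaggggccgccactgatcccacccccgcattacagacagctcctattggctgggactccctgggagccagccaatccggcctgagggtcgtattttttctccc

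The Atp5j promoter shown, 1 of 2 listed for the gene, held ETS and YY1 letters (the other, nearer the outermost start, held none of the 3), that of Ndufc1 YY1 letters close after the start, those of Ndufs8 and Cox6b1 ETS letters, and that of Sdha 3 copies of the NRF1 letters, while that of Cox6b2 held none of the 3. Over the 82 promoters the NRF1 letters were in 24.4% (4.60% of all 32851 promoters), the ETS letters in 20.7% (8.86% of all) and the YY1 letters in 11.0% (1.40% of all). The CCAAT box, spelled CCAAT, was in 42.7% (37.4% of all), the GC box GGGCGG in 42.7% (35.7% of all) and TATAAA in 9.76% (13.6% of all). Among the 29 genes with a promoter that were at least 4-fold lower in M-Z+ embryos, 6 held the NRF1 letters, 8 the ETS letters and 5 the YY1 letters. Among the 41 other genes with a promoter that passed the filter these numbers were 11, 9 and 2. These are counts of letters in a window and do not locate a binding site. The promoters shown are examples and do not stand for all lower or higher genes. The 6 lower genes with the NRF1 letters included Atp5o, Ndufa11 and Uqcrc1. Of the higher genes with a promoter, Ndufa4, Ndufb3 and Ndufc2 held none of the 3 sets of letters, unlike Sdha.

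Oxidative phosphorylation transcripts are short: the longest annotated transcript had a median of 1064 nucleotides over the 92 members with a length, beside 3166 over rows that passed in the 2C comparison. Short rows had other medians than long ones over the whole table, and the values are given by length. Among rows under 1000 nucleotides the median log2 ratio in M-Z+ over control embryos was -1.30 for 35 members and -1.64 for 1223 rows of any gene, with 40.0% of members and 46.9% of all such rows lower. Between 1000 and 2000 nucleotides it was -2.42 for 28 members and -0.54 for 2245 rows, and from 2000 nucleotides up -1.04 for 20 members and -0.15 for 9590 rows. By median, the shortest members thus lay near other short transcripts, and the longer ones below other rows of their length. The share lower exceeded that of all rows only between 1000 and 2000 nucleotides, with 57.1% of members and 37.1% of all rows. From 2000 nucleotides up 5 of 20 members were lower, beside 27.5% of all rows. In Kdm1aZp3 over control oocytes the median of members was 1.02, 0.67 and 0.59 from the shortest to the longest class, beside 0.53, 0.22 and -0.06 for all rows. Across genes, which are not independent replicates, the Spearman correlation of length with the log2 ratio was 0.02 over 83 members and 0.08 over 13058 rows in 2C embryos, and -0.24 over 81 members and -0.18 over 10825 rows in oocytes. The members' medians in 2C embryos had no order by length. The part of length in the results was not tested.

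**Figure D4:**
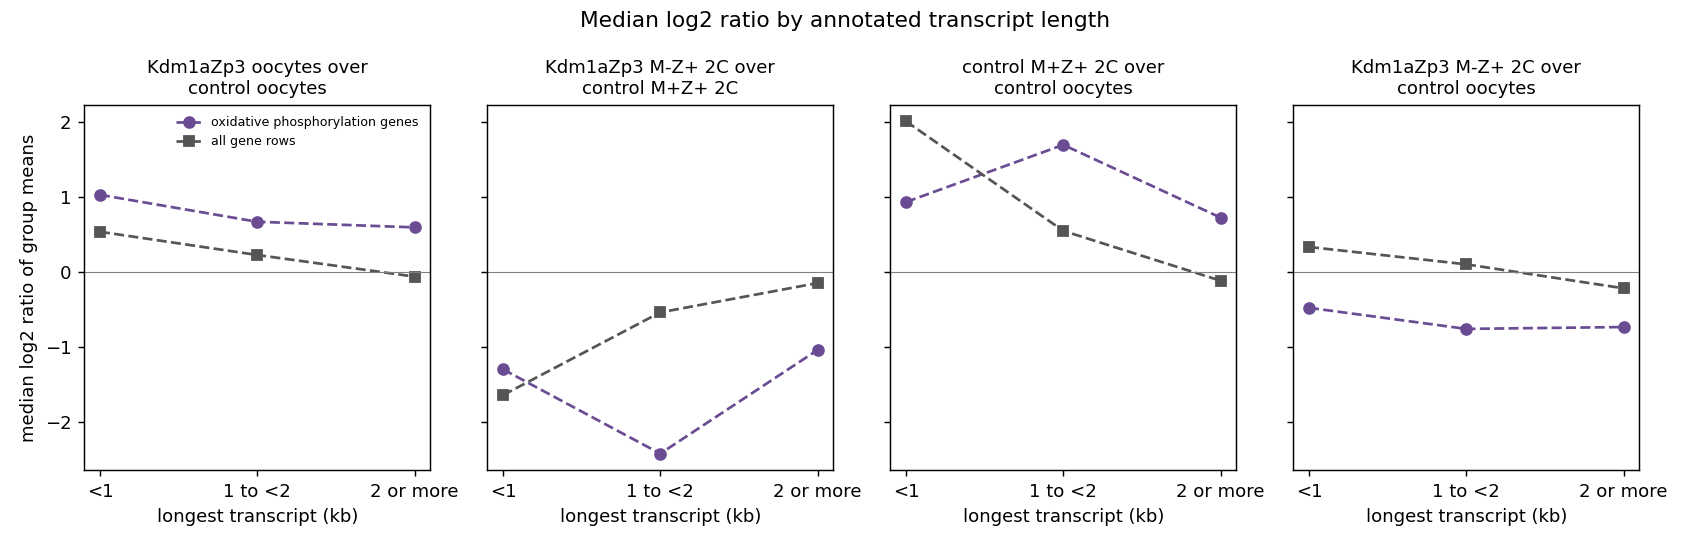
Median log2 ratio of group means (y axis) by length of the longest annotated transcript (x axis, kb) for oxidative phosphorylation genes (circles) and all gene rows (squares) in the 4 comparisons. In M-Z+ over control 2C embryos the members under 1 kb have a median of -1.30 and all rows of that length -1.64; each point of the members rests on 18 to 37 genes.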

How the data were processed

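RNA-seq was used in 3 libraries each of Kdm1aZp3 oocytes and Kdm1aZp3 M-Z+ 2C embryos and in control libraries of an earlier study. The deposited values are scores: the authors trimmed the first read of each pair, aligned it to genes (mm10) and annotated repeats with BBMap, gave reads hitting several gene loci less weight, so genes with near-identical copies may be undercounted, median normalized the counts in R and averaged them within groups. Cufflinks and DESeq appear in the submitters' processing notes (versions not given in the sources used here). The depth of the libraries is unknown, and there were 0 columns of values per library. The tables also hold fold changes, p-values and adjusted p-values of the authors' own comparisons, which were not used, and neither was a table of 875 repeat names.

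In tables with 2C embryos column b was taken as the first-named group of each comparison and column a as the second; control oocyte columns ranked rows alike across the 3 tables that hold them (Spearman 0.9999 over 12450 and 11926 rows, against 0.565 and 0.768 for the other columns). Log2 ratios (pseudocount 1), 4-fold counts and medians were computed with Python 3.11.15, numpy 2.4.6 and pandas 2.3.3, tested on simulated data. Genes were annotated with GENCODE M21 (GRCm38). Alternatives were another fold, pseudocount, filter, centring and choice of members; the length classes and promoter letters were chosen after seeing the data. Genes were named from the highest and lowest of each complex whose larger group mean was 200 or more, the paralog sets, the Sdh genes and the catalytic or redox subunits, with 1 gene of this rule not reported here; some other members are named for their values, and the rest are only counted. Members and lists were chosen with earlier results of these data known. With group means only, no test, SD or interval was possible.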

Additional observations from a re-analysis of the deposited data

How the results depend on the processing

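No paired analysis was possible because the tables hold group means only, and for the same reason no library could be left out. Of 80 values (counts of members higher or lower and medians, each under its alternatives) 66 held, counts within 1.5 times and medians within a 1.5-fold change of the ratio, and no median changed sign. The median of M-Z+ embryos over control oocytes was -0.38 without assembly factors, against -0.64 as reported. With 2-fold in place of 4-fold, 30 of 82 members were higher and 4 lower in Kdm1aZp3 oocytes over control oocytes. All rows had shares of 17.7% and 14.0% there. In M-Z+ over control 2C embryos, 12 of 84 were higher, beside 31.9% of all rows. In control embryos over control oocytes, 45 of 87 were higher and 20 lower, beside 39.6% and 34.5% of all rows. In M-Z+ embryos over control oocytes, 13 of 82 were higher and 38 lower, beside 26.6% and 31.3%. With a pseudocount of 10, 3 of 82 members were higher in oocytes, beside 3.84% of all rows. In M-Z+ over control embryos 3 of 84 were higher, beside 15.9% of all rows. With a minimum average of 50, where fewer genes are counted by construction, 2 of 60 were higher in oocytes, beside 4.09% of all rows. In M-Z+ embryos over control oocytes 12 of 61 were lower with this minimum, beside 14.0% of all rows. Another alternative left out the 31 members whose exons overlap another gene, with Atp5o kept because it could not be looked up. It was chosen after seeing the data and counts fewer members by construction. Of 53 members 2 were then higher in oocytes, beside 7.39% of all rows. Of 57 members 18 were higher and 7 lower in control embryos over control oocytes, beside 29.6% and 23.1% of all rows. Of 195 ratios of named genes 8 fell under 4-fold with a pseudocount of 10, and 1 passed it after centring on the median of all rows. Over all rows in oocytes, 875 were higher and 578 lower as reported, 2096 and 1654 with 2-fold, 455 and 278 with a pseudocount of 10, 345 and 225 with a minimum average of 50, and 1492 and 1248 with no minimum. In the other comparisons, with 2-fold, 4617 rows were higher in M-Z+ over control embryos, and 3452 higher and 4058 lower in M-Z+ embryos over control oocytes; with a minimum average of 50, 1915 higher and 2873 lower in M-Z+ over control embryos, 2955 higher in control embryos over control oocytes, and 990 higher and 1307 lower in M-Z+ embryos over control oocytes; with no minimum, 2878 higher in M-Z+ embryos over control oocytes. The 4-fold bound is a rule of size, and genes near it could fall on either side with other libraries.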
